A study of Mus musculus with 15 samples.

Results

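The chromatin of 109 RNA splicing and processing genes (the members) was followed in pancreatic islets of mice with an induced deletion, per the labels, of the chromatin remodeller subunit Arid1a in β cells, before and after partial pancreatectomy (PPx), the surgical removal of part of the pancreas. The genes were chosen by name, as those starting with Srsf, Snrp, Hnrnp, Sf3a, Sf3b, Prpf, Ddx, Dhx, Rbm, Lsm, Cpsf or Exosc (Ddx, Dhx, Rbm and Lsm only before a digit), among the 10268 genes to which the authors' deposited tables assign a peak. By family they comprised 3 Srsf, 5 Snrp, 15 Hnrnp, 5 Sf3a or Sf3b (Sf3), 10 Prpf, 20 Ddx, 9 Dhx, 26 Rbm, 7 Lsm, 4 Cpsf and 5 Exosc genes. Their peaks formed 125 separate regions over the 4 tables, of which 64 were listed in all 4 tables and 10 in a single table. Rbm3os and Rbm46os, which the prefix also takes in, are genes on the opposite strand of Rbm3 and Rbm46. Rbm31y was listed with log2 levels below 0.

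Open chromatin was profiled in islets of 15 male mice aged 3 months by ATAC-seq, which reads out the DNA that the transposase Tn5 can reach and cut. The βKO genotype carried Arid1aFl/Fl, MIP-rtTA and TRE-Cre, and the control genotype carried Arid1aFl/Fl and MIP-rtTA without Cre. MIP-rtTA expresses a doxycycline-dependent activator from an insulin promoter, so Cre is made only where this promoter is active and doxycycline is present. All mice drank doxycycline at 1 g/L for 2 weeks, and PPx was done 1 week after its withdrawal. The groups were 4 βKO and 4 control mice 6 days after PPx, and 3 βKO and 4 control mice before PPx. Whole islets were used, which also hold α, δ and other cells that keep Arid1a. The authors' deposited tables give 1 log2 concentration (the log2 of the mean normalized read count in a peak) per group, so all levels below are group values with no spread over single mice. How the counts were normalized between libraries is not given in the sources used here; another scaling could shift all changes of a comparison alike, which was not tested, so a member's change is set beside the median of all peaks. A change is the difference of 2 such levels, and a standard error (SE) for it was derived from the authors' p-value.

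Pre-mRNA splicing is carried out by the spliceosome, which is built from small nuclear ribonucleoproteins (snRNPs), and is driven through its steps by RNA helicases of the DEAD-box (Ddx) and DEAH-box (Dhx) families. SR proteins, hnRNPs and many Rbm proteins bind the transcript and set which exons are kept, while Cpsf proteins cut its 3′ end before polyadenylation and the exosome trims and degrades RNA. In β cells, alternative splicing is known to act on genes of insulin secretion and cell survival. Genes of these families are mostly expressed in every cell type, from CpG-rich promoters.

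The member promoters share this composition. Of the 102 member promoter peaks listed between the genotypes after PPx, 80 overlapped a RefSeq promoter window of their own gene, which runs from 250 bases before to 50 after the start site. The median GC content was 60.3% in these 80 windows, against 62% in the 5026 windows that lie in listed promoter peaks and 52.7% in all 32851 windows, and the median number of CpG sites was 24, against 23 and 7. The 6 windows below are shown with the motifs found in them in capitals, from GRCm38.p6, the assembly of mm10. Srsf11 is shown for the smallest FDR of any member between the genotypes after PPx, Hnrnpc for the strongest member peak, and Sf3b1 for its role in branch-point recognition. Hnrnpf stands for the largest change of a member after PPx in βKO islets, and Hnrnph3 for the largest in control islets. The Pfkfb3 window lies in a peak that the authors' table gives to Rbm17.
Srsf11, chr3:158031699-158031998, minus strand: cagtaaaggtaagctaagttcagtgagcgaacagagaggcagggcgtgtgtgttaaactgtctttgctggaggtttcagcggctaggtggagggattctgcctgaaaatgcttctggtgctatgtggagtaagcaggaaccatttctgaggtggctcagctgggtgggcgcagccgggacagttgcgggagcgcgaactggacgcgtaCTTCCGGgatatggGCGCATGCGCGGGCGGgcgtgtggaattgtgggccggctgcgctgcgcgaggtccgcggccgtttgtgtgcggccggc
Hnrnpc, chr14:52103972-52104271, minus strand: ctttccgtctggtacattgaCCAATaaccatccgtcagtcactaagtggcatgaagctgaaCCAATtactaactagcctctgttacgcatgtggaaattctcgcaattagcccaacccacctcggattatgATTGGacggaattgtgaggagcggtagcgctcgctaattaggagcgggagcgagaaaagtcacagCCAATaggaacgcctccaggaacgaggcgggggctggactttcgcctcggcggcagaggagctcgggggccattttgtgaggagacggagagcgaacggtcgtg
Sf3b1, chr1:55027429-55027728, minus strand: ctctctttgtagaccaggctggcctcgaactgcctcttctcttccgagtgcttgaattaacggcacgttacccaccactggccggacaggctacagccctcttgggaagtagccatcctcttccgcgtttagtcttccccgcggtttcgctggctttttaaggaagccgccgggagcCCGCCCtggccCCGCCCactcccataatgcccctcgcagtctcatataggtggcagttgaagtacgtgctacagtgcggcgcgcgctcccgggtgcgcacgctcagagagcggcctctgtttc
Hnrnpf, chr6:117917044-117917343, plus strand: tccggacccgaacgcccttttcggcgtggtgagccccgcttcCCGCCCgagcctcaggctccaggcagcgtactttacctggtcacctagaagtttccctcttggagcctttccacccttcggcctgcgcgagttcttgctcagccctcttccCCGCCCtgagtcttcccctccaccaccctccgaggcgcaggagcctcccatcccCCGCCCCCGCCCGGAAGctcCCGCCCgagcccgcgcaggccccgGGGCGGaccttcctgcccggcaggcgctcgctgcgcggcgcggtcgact
Hnrnph3, chr10:63023800-63024099, minus strand: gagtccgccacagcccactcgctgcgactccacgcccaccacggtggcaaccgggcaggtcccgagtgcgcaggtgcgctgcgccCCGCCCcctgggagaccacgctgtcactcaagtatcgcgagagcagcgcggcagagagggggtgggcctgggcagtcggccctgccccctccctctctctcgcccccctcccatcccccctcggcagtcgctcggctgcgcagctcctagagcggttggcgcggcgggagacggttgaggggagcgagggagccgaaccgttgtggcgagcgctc
Pfkfb3, chr2:11553880-11554179, minus strand: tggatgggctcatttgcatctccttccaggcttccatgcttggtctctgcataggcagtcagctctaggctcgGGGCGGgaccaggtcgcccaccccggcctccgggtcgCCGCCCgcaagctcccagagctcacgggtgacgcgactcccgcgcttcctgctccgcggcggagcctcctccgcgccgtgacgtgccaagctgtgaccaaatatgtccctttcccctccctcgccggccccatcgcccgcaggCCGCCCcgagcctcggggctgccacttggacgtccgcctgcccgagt

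The motifs searched on both strands were ETS (CCGGAAG), NRF1 (GCGCA followed by its own reverse complement), YY1 (AAGATGGCG), SP/KLF (GGGCGG), NFY (CCAAT), CRE (TGACGTCA), E-box (CACGTG) and the TATA box (TATAAA). The Srsf11 window held ETS, NRF1 and SP/KLF matches, the last of these adjoining the NRF1 match. Hnrnpc held 4 NFY matches and no other. Sf3b1 held 2 SP/KLF matches, Hnrnph3 held 1 and Pfkfb3 held 3. Hnrnpf held 6 SP/KLF matches, with an ETS match that shares bases with one of them. Over all member windows, the ETS letters stood in 36.2% (29 of 80), against 19.1% of the windows in listed promoter peaks and 8.86% of all windows. SP/KLF stood in 70% of member windows against 72% of windows in listed promoter peaks, and NFY in 45% against 44.6%. For the rarer motifs the shares were YY1 5% against 3.26%, NRF1 3.75% against 2.41%, CRE 2.5% against 3.8%, E-box 7.5% against 10.3% and TATA 2.5% against 5.63%. In all 32851 windows these shares were 35.7% for SP/KLF, 37.4% for NFY, 1.4% for YY1, 0.971% for NRF1, 1.79% for CRE, 7.15% for E-box and 13.6% for TATA. Of the 8 member windows in peaks called between the genotypes after PPx, 7 held SP/KLF, 4 NFY and 2 ETS.

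The comparisons listed between 7826 and 13111 peaks, with a median log2 concentration between 3.78 and 4.02. The median SE of a member's change lay between 0.37 and 0.47 log2 units, which limits what can be said of single peaks. A peak in exon 9 of Arid1a itself was higher in βKO islets at both times, at 4.04 in βKO against 0.40 in control after PPx (FDR 0.00201) and at 5.49 in βKO against 1.21 in control before PPx (FDR 0.00187), per the authors' deposited tables. In βKO islets this peak read 4.04 after and 5.26 before PPx (change -1.22, FDR 0.0584) in the authors' deposited table. Whether the peak comes from the recombined allele was not tested. Of 9 β-cell markers, Ins1, Mafa, Nkx6-1 and Slc30a8 had a peak in the comparison of genotypes after PPx, with 2 of 9 peaks called higher in βKO and a median change of 0.70. Of the α, δ and PP cell markers 3 of 6 had a peak there, and 1 of their 3 peaks was called (median change 0.10). A peak was also listed for 1 of 6 acinar, 0 of 4 duct, 2 of 4 endothelial, 1 of 3 stromal and 2 of 4 leukocyte markers, with no call and with median changes of 0.08, 0.08, 0.47 and 0.675 for the acinar, endothelial, stromal and leukocyte peaks. Levels at the marker peaks of endothelial, stromal and leukocyte cells ran between 2.73 and 4.46 in βKO and between 2.38 and 3.78 in control islets. Their part in the members' values was not tested, and in whole islets a change in accessibility per cell and a change in the share of cells cannot be told apart.

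At 6 days after PPx, βKO islets had the higher level at nearly every peak listed for these genes, and 12 peaks passed the authors' test. The authors' deposited table lists 114 member peaks of 100 genes in this comparison, and 109 of them were higher in βKO (95.6%), as were 90.3% of all 13111 peaks. Their median change was 0.715, a 1.64-fold higher level (quartiles 0.495 and 0.87), against a median of 0.61, or 1.53-fold, over all peaks. An FDR under 0.05 in the authors' deposited table (called) was reached by 12 member peaks, all higher in βKO, which is 10.5% of the members. Over all peaks 9.88% were called higher and 0.0839% lower. At an unadjusted p under 0.05, 49 members (43%) were higher and 0 lower, against 33% and 0.526% of all peaks. The members were more often promoter peaks than the rest (89.5% against 61.4%), and promoter peaks had a median change of 0.71. Set against peaks of the same concentration bin (10 bins) and the same class (promoter or other), the members' median excess was 0.045, and the called share of such peaks, 12%, would give 13.7 calls where 12 were found.

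**Figure D1:**
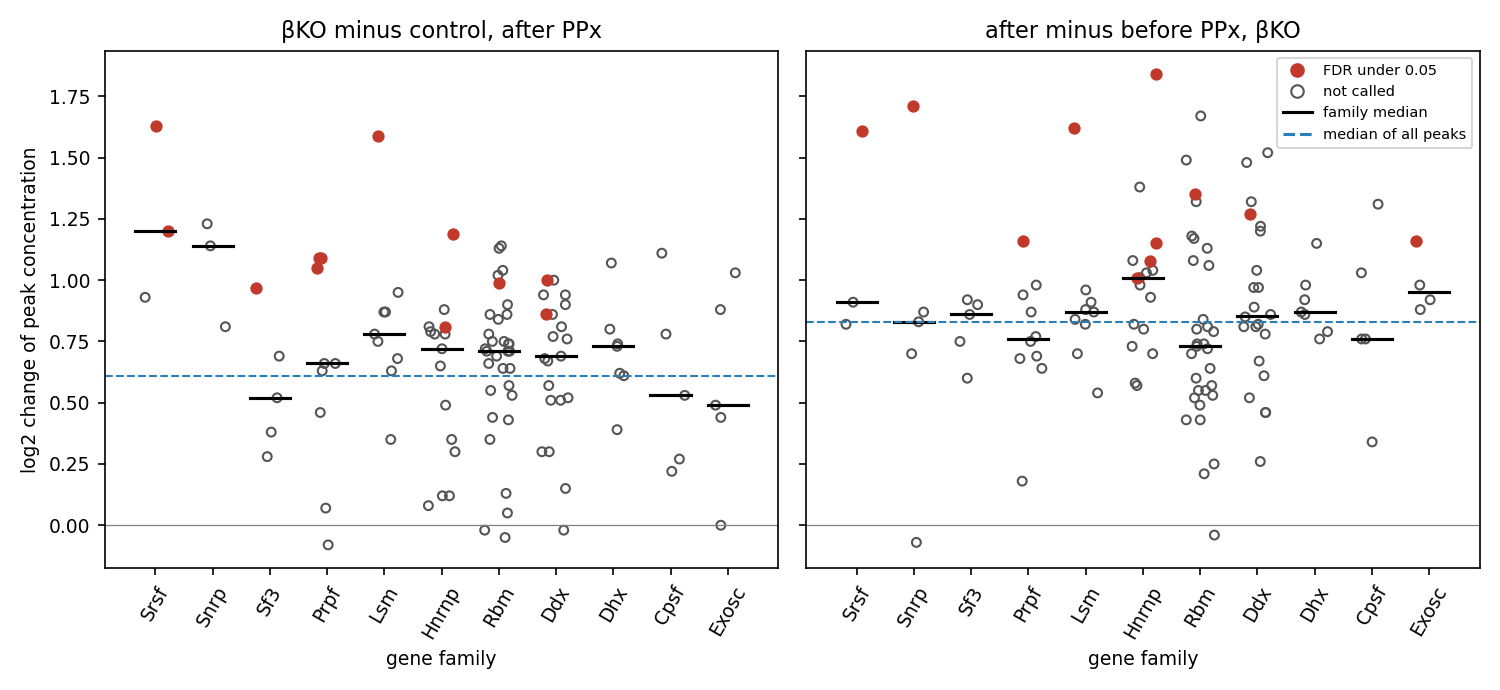
Log2 change of peak concentration at the member peaks by gene family, βKO minus control after PPx (left) and after minus before PPx in βKO (right), from the authors' tables. Filled points have an FDR under 0.05 and black bars are family medians. The dashed line is the median of all peaks (0.61 left, 0.83 right). Nearly all members lie above 0, and the Srsf and Snrp medians (1.20 and 1.14, each over 3 peaks) lie highest on the left.

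When each change was measured from the table median of 0.61, an approximate normal test with Benjamini-Hochberg adjustment called 0 members and 0.389% of all peaks. Srsf5 had the smallest adjusted p of the members in that test, 0.855, and 2 members had an unadjusted p under 0.05. Per the authors' deposited table, 52 of the 114 member peaks (45.6%) were found by the peak caller in all 4 βKO libraries and 23 (20.2%) in all 4 control libraries, and 35 (30.7%) were found in no control library. Over all peaks these shares were 37.4%, 18.5% and 28.4%. FDR 1 stands in the authors' deposited table beside 35 members, all with a βKO level under 4, and 6 of them had an unadjusted p under 0.05, namely Snrpg, Snrpb2, Rbm34, Dhx30, Cpsf6 and Ddx21. How an FDR of 1 was set is not given in the sources used here. It stood beside an unadjusted p as small as 0.00753 among the members (Snrpg), so it does not show that the genotypes had equal levels. With the p-values adjusted over all listed peaks, 0 of the 35 were called, and Snrpg had an adjusted p of 0.0693.

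The SR family, regulators of exon choice, had the highest median change in this comparison, over 3 peaks. Srsf11, an SR-related protein of the early spliceosome, read 5.62 in βKO and 4.42 in control islets at its promoter (chr3:158031405-158032005), and changed by 1.20 (SE 0.31, FDR 0.0212) in the authors' deposited table. Srsf5, an SR protein that binds exonic enhancers, read 4.32 in βKO and 2.69 in control islets (chr12:80945808-80946408; change 1.63, SE 0.46, FDR 0.0265), per the authors' deposited table. They rose 2.30-fold and 3.10-fold, and the Srsf11 peak was found in all 8 libraries while that of Srsf5 was found in 3 βKO libraries and 1 control library. Srsf6, the other SR gene with a peak, read 3.70 in βKO and 2.78 in control islets in the authors' deposited table, with an unadjusted p of 0.0503. The family median of 1.20 lay 0.44 above that of like peaks, and in the comparison of times in βKO the family's median excess was 0.03.

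The hnRNPs, which coat nascent transcripts and often repress exons, had 15 peaks with a median change of 0.72 and 2 calls. The called share of like peaks would give 2.70 calls. Hnrnpc, which binds uridine-rich stretches, had the strongest peak of the set (chr14:52103910-52104510), at 7.16 in βKO and 6.35 in control islets (change 0.81, SE 0.30, FDR 0.0475) in the authors' deposited table. Hnrnpa0, an A/B-type hnRNP, read 4.46 in βKO and 3.26 in control islets (chr13:58128630-58129230; change 1.19, FDR 0.0396), per the authors' deposited table. Uncalled members spread widely around these. Hnrnpf read 4.52 in βKO and 3.63 in control islets (FDR 0.0622) in the authors' deposited table, and Hnrnpl 5.44 and 4.64 (FDR 0.0692). At the low end, Hnrnph3, a G-tract binder like Hnrnpf, read 5.09 in βKO and 5.01 in control islets (change 0.08, SE 0.33, FDR 0.831), per the authors' deposited table. Its peak also overlaps the RefSeq promoter window of Pbld2.

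The Rbm genes formed the largest group, with 32 peaks of 25 genes and a median change of 0.71. They had 1 call, where the share of like peaks would give 3.28. That call was a distal peak annotated to Rbm17, an early splicing factor, at 5.13 in βKO and 4.13 in control islets (change 0.99, FDR 0.0425) in the authors' deposited table. Rbm15, an adaptor of the N6-methyladenosine writer, had the strongest Rbm peak, at 6.82 in βKO and 5.99 in control islets (FDR 0.0604) in the authors' deposited table. Rbm10, a regulator of exon skipping, read 5.03 in βKO and 4.18 in control islets (FDR 0.0604), per the authors' deposited table. The highest changes in the group, 1.14 at Rbm34 and 1.13 at Rbm3os, came from peaks found in no control library. At the other end a peak of Rbm47 read 3.49 in βKO and 3.54 in control islets; the authors' annotation classes it as promoter, while the nearest RefSeq start of Rbm47 lies 45.27 kb away. An intron peak of Rbm20, a splicing regulator of titin in heart, read 3.44 and 3.46, per the authors' deposited table.

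Core spliceosome genes were mixed. Sf3b1, the subunit of the U2 snRNP that holds the branch point, rose at its promoter (chr1:55027163-55027763), to 5.13 in βKO against 4.16 in control islets (change 0.97, SE 0.30, FDR 0.0325; authors' deposited table). The other Sf3 subunits with a peak, Sf3a3, Sf3b2, Sf3b5 and Sf3b6, had changes between 0.28 and 0.69 and no call in the authors' deposited table. The 3 Snrp peaks, of the Sm-ring genes Snrpg and Snrpd1 and the U2 protein gene Snrpb2, had changes of 1.23, 0.81 and 1.14, all with levels under 4 and with FDR 1 in the authors' deposited table. Their median of 1.14 lay 0.57 above like peaks, and none was called, where the share of like peaks would give 0.04. In the comparison of times in βKO the family's median excess was -0.05 over 5 peaks. Between the genotypes before PPx it was -0.6 over 2 peaks. The Snrpd1 and Snrpb2 peaks were found in no control library. Snrpg and Snrpb2 were among the peaks with an FDR of 1 and an unadjusted p under 0.05.

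Of 9 Prpf peaks, 3 were called, where the share of like peaks would give 1.01. The family median was 0.66. Prpf38b, a spliceosome-associated protein, read 5.54 in βKO and 4.45 in control islets (chr3:108911483-108912083; change 1.09, FDR 0.0346), per the authors' deposited table. Prpf39, a factor of the U1 snRNP, read 4.84 in βKO and 3.79 in control islets (chr12:65036024-65036624; change 1.05, FDR 0.0348) in the authors' deposited table. The kinase gene Prpf4b read 5.08 in βKO and 3.99 in control islets (chr13:34873855-34874455; change 1.09, FDR 0.032) in the authors' deposited table, at a peak centred upstream of its nearest RefSeq start, at -1374 bp. Prpf31, a tri-snRNP protein whose human mutations cause retinitis pigmentosa, lay lowest of all members, at 3.67 in βKO and 3.75 in control islets, per the authors' deposited table. Its peak also overlaps the RefSeq promoter window of Tfpt.

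Lsm genes, most of which encode the ring on U6 snRNA, had 9 peaks with a median change of 0.78. They had 1 call, where the share of like peaks would give 1.27. The call fell on Lsm11, a subunit of the U7 snRNP that processes histone mRNA, at a peak 18.12 kb from its start (chr11:45926515-45927115). It read 4.23 in βKO and 2.64 in control islets (change 1.59, SE 0.46, FDR 0.0267) in the authors' deposited table. This peak was found in 3 βKO libraries and in no control library. The Lsm11 promoter read 4.54 and 3.67 (FDR 0.0763). Lsm8, which sets the nuclear form of the ring, had the strongest Lsm peak, at 6.58 in βKO and 5.94 in control islets (FDR 0.128), per the authors' deposited table.

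Among the helicases, 2 of 21 Ddx peaks and 0 of 7 Dhx peaks were called, with medians of 0.69 and 0.73. The share of like peaks would give 2.49 Ddx and 0.94 Dhx calls. Ddx20, the Gemin3 subunit of the SMN complex that assembles snRNPs, read 5.76 in βKO and 4.76 in control islets (chr3:105687230-105687830; change 1.00, FDR 0.0367), per the authors' deposited table. Ddx50, a nucleolar helicase, read 5.72 in βKO and 4.86 in control islets (chr10:62651036-62651636; change 0.86, FDR 0.0447) in the authors' deposited table. The member just outside the threshold was Ddx18, a nucleolar helicase of ribosome assembly, at 5.52 in βKO and 4.52 in control islets (FDR 0.0518; authors' deposited table). The spliceosomal helicase genes Dhx16 and Dhx38 had changes of 0.80 and 0.74 with FDRs of 0.0902 and 0.123, while Ddx41 read 3.71 in βKO and 3.73 in control islets, per the authors' deposited table. The genes of 3′ end cleavage and RNA decay had medians of 0.53 over 5 Cpsf and 0.49 over 5 Exosc peaks, with no call in either. The Sf3 family had a median of 0.52, and its 1 call was Sf3b1. From the share of like peaks, 0.38 Cpsf, 0.48 Exosc and 0.72 Sf3 calls would come. Exosc8 and Exosc5, subunits of the exosome ring, had changes of 1.03 (FDR 0.0522) and 0.88 (FDR 0.0532) in the authors' deposited table, and Exosc3, one of its RNA-binding caps, read 2.81 in both genotypes.

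Before PPx no member passed the same test between the genotypes. In the authors' deposited table, 78 member peaks of 72 genes had a median change of -0.025 (quartiles -0.2175 and 0.17), against 0 over all peaks. Higher in βKO were 36 of the 78 (46.2%) and 48.9% of all peaks. No member was called in either direction, against 0.0128% of all peaks called higher and 0% lower, and every member had an FDR of 1. At an unadjusted p under 0.05, 1 member was higher and 0 were lower, against 0.843% and 2.3% of all peaks. That member was Lsm8, at 6.27 in βKO and 5.54 in control islets (change 0.73, SE 0.32, p = 0.0211 from the authors' DiffBind test), per the authors' deposited table. The widest differences in the other direction were at Snrpg, at 2.41 in βKO and 3.47 in control islets (p = 0.103), and at Hnrnpf, at 2.90 and 3.76, in the authors' deposited table. Relative to the table median, 0 members and 0.0128% of all peaks were called. Of the 12 peaks called after PPx, 11 were listed here, and 10 of these were higher in βKO, by less than after PPx and with no call. The same count for all peaks called after PPx is not given here, so the 10 are not shown to be particular to the members. Prpf38b had the widest gap among them, at 5.05 in βKO and 4.40 in control islets (change 0.65, p = 0.0884 from the authors' DiffBind test), and the distal Rbm17 peak had a change of -0.15, in the authors' deposited table. Hnrnpc read 6.37 in βKO and 6.33 in control islets, Sf3b1 4.44 and 4.12, Srsf11 4.91 and 4.47, and Ddx50 5.31 and 5.15, per the authors' deposited table.

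**Figure D2:**
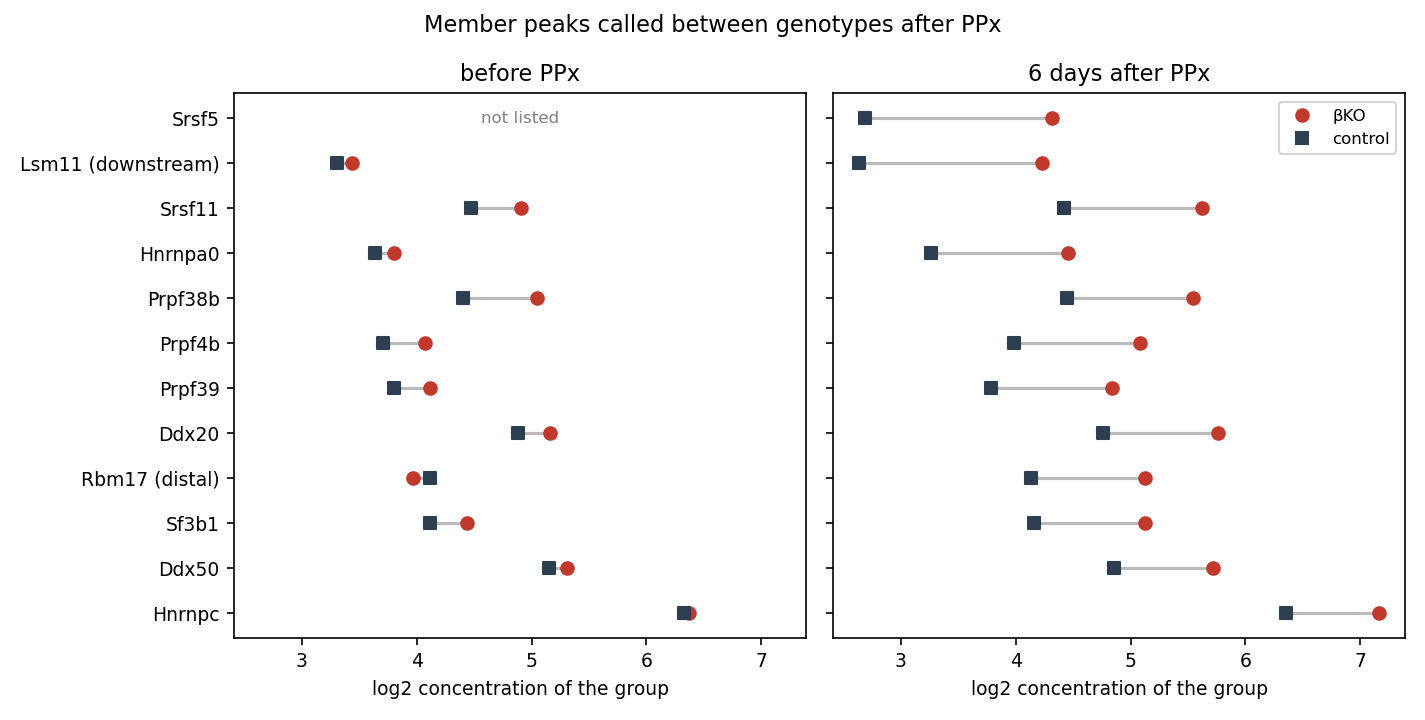
Group log2 concentration (horizontal axis) of the 12 member peaks called between the genotypes after PPx, in βKO (circles) and control islets (squares), before PPx on the left and 6 days after PPx on the right. After PPx every βKO point lies to the right of its control point, by 0.81 to 1.63; before PPx the listed pairs lie closer, and Srsf5 was not listed.

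In βKO islets the level at nearly every member peak was higher after than before PPx, and 11 peaks passed the authors' test. The authors' deposited table lists 118 member peaks of 104 genes, with a median change of 0.845 (1.80-fold) after against before PPx and quartiles of 0.70 and 1.03. The median of the whole table was 0.83 (1.78-fold), and 98.3% of members and 97.1% of all peaks were higher after PPx. Of the 118 member peaks, 41 were found by the peak caller in no βKO library before PPx, and 0 in no library after PPx. Those 41 were thus listed only through the group taken after PPx. The same count over all peaks of this comparison is not given here. Called higher were 11 members (9.32%), against 7.44% of all peaks, and called lower were 0 members and 0% of all peaks. The share among like peaks, 8.89%, would give 10.5 calls. At an unadjusted p under 0.05 there were 48 members higher (40.7%) and 0 lower, against 39.4% and 0.0235% of all peaks. The median excess over like peaks was -0.01, and relative to the table median 0 members and 0% of all peaks were called. In the same table the peaks of the leukocyte markers Csf1r and Ptprc had a median change of 1.12, with levels between 3.50 and 4.03 after and between 2.02 and 3.27 before PPx, and 1 of the 2 was called. The median change was 1.06 over 9 β-cell marker peaks (1 called), 0.55 over 3 α, δ and PP cell peaks, 0.70 over 2 stromal peaks and 0.32 over 2 endothelial peaks, with no call in these last groups. The part of cell composition in the members' values was not tested.

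The hnRNPs held 4 of the 11 calls, where the called share of like peaks would give 1.94. Their 17 peaks had a median change of 1.01. Hnrnpf, which binds G-tracts near splice sites, had the largest change of any member, at 4.52 after and 2.67 before PPx (chr6:117916696-117917296; change 1.84, SE 0.47, FDR 0.023) in the authors' deposited table. It rose 3.58-fold, and its peak was found in all 4 libraries after PPx and in none of the 3 before. Hnrnpa2b1, a reader of RNA sorting signals, rose to 4.88 after against 3.73 before PPx (FDR 0.0468), and Hnrnph3 to 5.17 against 4.10 (FDR 0.0484), per the authors' deposited table. Hnrnpc, the fourth, read 7.16 after and 6.15 before PPx (change 1.01, FDR 0.0439) in the authors' deposited table. Hnrnpll, a regulator of CD45 splicing in T cells, lay just outside the threshold at 5.85 after and 4.85 before PPx (FDR 0.0507; authors' deposited table).

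Each other family gave at most 1 call, and the Sf3, Dhx and Cpsf families gave none. For these other families the share of like peaks would give between 0.26 (Snrp) and 2.33 (Rbm) calls. Of the small RNP genes, Snrpg, a subunit of the Sm ring, rose to 3.97 after against 2.25 before PPx (FDR 0.0404), and Lsm5, of the U6 ring, to 4.27 against 2.66 (FDR 0.041), per the authors' deposited table. Srsf5 read 4.34 after and 2.73 before PPx (FDR 0.0351), and the distal peak annotated to Rbm17 5.06 and 3.72 (FDR 0.0353) in the authors' deposited table. The helicase gene Ddx24 rose to 5.28 after against 4.01 before PPx (FDR 0.0403), per the authors' deposited table. Prpf19, the ubiquitin ligase of the spliceosome, read 4.95 after and 3.79 before PPx (FDR 0.0483), and the exosome subunit gene Exosc5 5.43 and 4.26 (FDR 0.0486), in the authors' deposited table. The Exosc5 and Hnrnph3 peaks also overlap the RefSeq promoter windows of Bckdha and Pbld2. The peaks of Hnrnpc, Srsf5 and the distal Rbm17 region were called both here and between the genotypes after PPx; these comparisons share the 4 βKO libraries taken after PPx, so this is no independent repeat.

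In control islets no called change followed PPx at these genes. The authors' deposited table lists 73 member peaks of 65 genes with a median change of 0.08 (quartiles -0.12 and 0.25), against 0.16 over all peaks, and 64.4% of members and 72.8% of all peaks were higher after PPx. No member was called, nor was any other peak (0% higher and 0% lower), and the smallest member FDR was 0.999. At an unadjusted p under 0.05 there were 2 members higher and 0 lower, against 2.43% and 0.0991% of all peaks, and relative to the table median 0 members and 0% of all peaks were called. The pair comprised Hnrnph3, at 5.09 after and 4.21 before PPx (change 0.88, SE 0.31, p = 0.00484), and Lsm8, at 5.99 and 5.40 (p = 0.0481), both by the authors' DiffBind test in their deposited table. Hnrnph3 thus read higher after PPx in both genotypes, and its levels in βKO and control islets differed by 0.08 at either time.

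Side by side, the PPx change was larger in βKO than in control islets at 70 of the 71 member regions listed in both tables of times, which share no library. The medians over these regions were 0.82 in βKO and 0.10 in control islets. Over all 7535 regions listed in both tables the change was larger in βKO at 92.8%, with medians of 0.83 in βKO and 0.16 in control islets. Lsm8 was the exception, with a change of 0.54 in βKO and 0.60 in control islets, per the authors' deposited tables. At the 64 regions listed in all 4 tables, the medians were 0.735 between the genotypes after PPx, -0.01 between them before PPx, 0.82 after PPx in βKO and 0.08 after PPx in control islets. A group's level at a region could differ between tables, as at Hnrnpc in βKO islets before PPx (6.37 beside control, 6.15 beside the later βKO islets), so levels of different tables are not strictly on 1 scale.

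**Figure D3:**
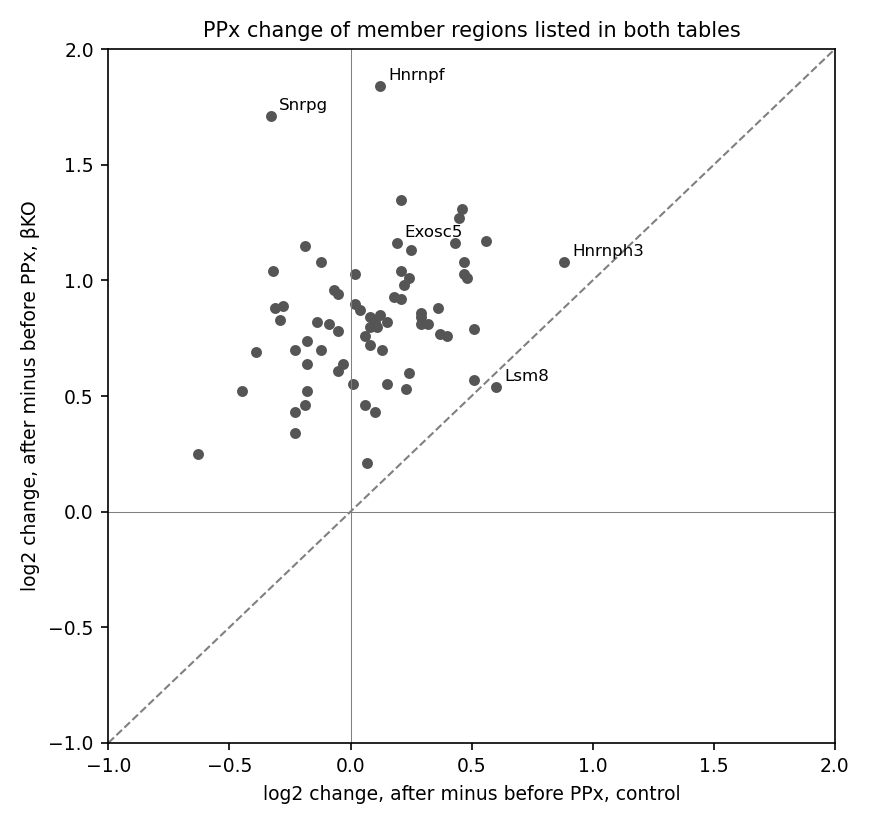
Log2 change after minus before PPx at the 71 member regions listed in both tables of times, in βKO (vertical axis) against control islets (horizontal axis), with the line of equal change dashed. All points but Lsm8 lie above the line; Hnrnpf (1.84 and 0.12) and Snrpg (1.71 and -0.33) lie farthest above it and Hnrnph3 (1.08 and 0.88) lies near it.

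The difference between the genotype effects at the 2 times was tested directly at the 73 member regions found in both genotype tables, among 7503 such regions. These tables share no mouse, so their errors are independent. After subtraction of each table's median, an approximate normal test called 0 members and 0% of all regions, and 1 member had an unadjusted p under 0.05, against 1.72% of all regions. That member was Snrpg, with a difference of 1.67 after minus before PPx (SE 0.79) and an adjusted p of 1.00 (Benjamini-Hochberg over all regions). Hnrnpf followed with a difference of 1.13 (SE 0.64), and Lsm8 had the largest negative one, -0.71 (SE 0.46), each also with an adjusted p of 1.00. Without values per mouse no exact test could be made. Without subtraction of the medians, 0 members and 0% of all regions were called, 8 members had an unadjusted p under 0.05 against 14.4% of all regions, and the smallest adjusted p of a member was 0.31. The uncentred difference had a median of 0.73 over members and 0.64 over all regions, and it was above 0 at 71 of 73 members and at 92.2% of all regions.

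In the comparison of genotypes after PPx, 12 of the 114 member peaks lay outside promoters, with a median change of 0.285 against 0.735 at the 102 member promoter peaks. Over all peaks the corresponding medians were 0.38 and 0.71. The downstream Lsm11 peak and the distal Rbm17 peak were the 2 called ones among these 12 peaks. Of all 114 member peaks 12 were called, and of all peaks 9.88% were called higher in βKO. The called share of all peaks outside promoters is not given here, and the 2 calls were not tested against it. More than 1 peak was listed for 12 genes, among them Rbm17 and Ddx60 with 3 peaks each. At Ddx60, an antiviral helicase gene, the changes were 0.67 at the promoter, 0.94 at a distal peak and 0.15 at an intron peak, with no call in the authors' deposited table. At Rbm17 the promoter (chr2:11602956-11603556) read 5.27 in βKO and 4.62 in control islets (FDR 0.104), and the exon 4 peak 4.13 and 4.00, per the authors' deposited table. The called distal peak (chr2:11553472-11554072) lies 49.427 kb from the Rbm17 start and holds a RefSeq start of Pfkfb3, a regulator of glycolysis, whose promoter window shares 193 bases with it. The Pfkfb3 window printed above is the promoter sequence at this called region.

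**Figure D4:**
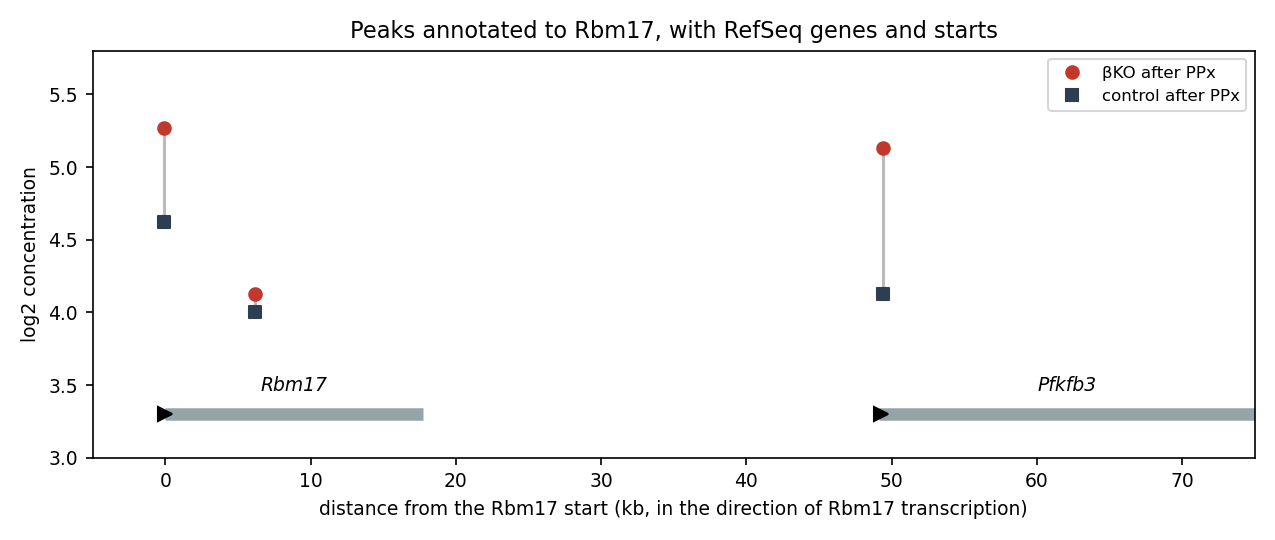
Log2 concentration after PPx in βKO (circles) and control islets (squares) of the 3 peaks annotated to Rbm17, by distance in kb from the Rbm17 start in its direction of transcription, with RefSeq genes as bars and start sites as triangles. The peak with the widest gap (5.13 and 4.13) lies 49.427 kb away, at the start of Pfkfb3, not at that of Rbm17 (5.27 and 4.62).

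Several members share their promoter region with a neighbouring gene. Between the genotypes after PPx, 23 of the 102 member promoter peaks (22.5%) overlapped the RefSeq promoter window of another gene, against 19.5% of all 8050 promoter peaks. Examples are Cpsf2 with Ndufb1, Exosc8 with Alg5, Rbm10 with Ndufb11, and Dhx29 with Mtrex, itself a helicase that feeds RNA to the exosome. Their median change was 0.71, against 0.74 at the other member promoters. Of the 23, 0 were called, where 10 of the 102 member promoter peaks and 9.88% of all peaks were called higher in βKO. The called share of all promoter peaks that overlap another gene's window is not given here, and whether shared promoters differ in calls was not tested.

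Other RNA processing genes outside these name families were followed from a list of 112, which spans splice-site factors, the Prp19-related complex, polyadenylation, mRNA export, nonsense-mediated decay and SMN complex genes. Between the genotypes after PPx, 63 of them had a peak, 10 were called higher in βKO and 0 lower (11.9% of their 84 peaks, against 9.88% of all peaks), and the median change was 0.68, which is 0.025 above like peaks. The 10 were Elavl4, Wdr33, Cwc22, Xrn2, Dis3, Thoc1, Son, Srrm2, Nxt1 and Plrg1. Thoc1, of the complex that couples transcription to mRNA export, changed by 1.03 (FDR 0.0214), and Wdr33, which reads the polyadenylation signal, by 1.10 (FDR 0.0351), in the authors' deposited table. Dis3, a catalytic nuclease of the exosome, read 6.42 in βKO and 5.38 in control islets (FDR 0.0334), per the authors' deposited table. The widest changes of the list, singled out after their values were seen, were at peaks with an FDR of 1. The promoter peak of Zrsr2, a factor of minor-intron splicing, read 3.94 in βKO and 1.97 in control islets (unadjusted p of 9.99e-05), and a distal peak annotated to Nova1, a neuronal splicing regulator, read 3.96 and 2.22 (unadjusted p of 0.00026), in the authors' deposited table. Adjusted over all listed peaks, these p-values became 0.0295 for Zrsr2 and 0.0334 for Nova1. Both peaks were found in 3 βKO libraries and in no control library, and so were listed only through the βKO libraries. After PPx in βKO islets, 5 of 64 genes with a peak were called higher and 0 lower (6.02% of their 83 peaks, against 7.44% of all peaks), and the median change was 0.84, which is 0.02 below like peaks (excess -0.02). These were Gemin6 of the SMN complex (1.76), Cwc22 (1.72), and the splicing regulators Celf1 (1.70), Mbnl1 (1.66) and Mbnl2 (1.27), per the authors' deposited table. The called Gemin6, Cwc22 and Celf1 peaks were found in no βKO library before PPx. Before PPx the Mbnl1 region already read lower in βKO than in control islets, at 3.17 and 4.43. That difference (-1.26) had an unadjusted p of 0.00543 in the authors' DiffBind test and was not called. In the genotype comparison before PPx and in control islets after PPx, 0 of 47 and 0 of 43 genes with a peak were called.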

How the data were processed

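Tools named in the submitters' processing notes are cutadapt, BWA, MACS, ChIPseeker and DiffBind, on mm10 (GRCm38). The sources used here give no versions, settings or read shift for Tn5. Per the file headers, each deposited table gives the log2 concentration of each group, their log2 fold, a p-value and the FDR, for peaks of 601 bp, with a count of libraries holding each peak. The authors' log2 fold subtracts βKO from control, or after from before; the sign is reversed here. The normalization and FDR are the authors' own; adjusted values of the 4 comparisons are those of their DiffBind fit. Single libraries were not analysed here: their depth is unknown, and the spread over mice enters only through the p-values.

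Rows repeating a peak were counted once and 1 empty row was dropped. Genes and classes follow the authors' annotation, with 1-based mm10 coordinates. Peaks of 2 tables that overlap by 1 bp or more were taken as the same region. SEs came from the change and p-value by the normal quantile, or, for p of 0.5 or more or changes under 0.1, from the median SE of like peaks in 20 bins of concentration. Like peaks are non-members of the same of 10 concentration bins and the same class. The approximate tests were adjusted by Benjamini-Hochberg over all peaks. They were tried only on simulated data with planted changes larger than any member's change. The simulated noise was drawn from the derived SEs, so neither the power at the members' changes nor the SEs themselves were tested. Promoter sequences are RefSeq's for GRCm38.p6. The analysis used Python 3.11.15 with pandas 2.3.3, numpy 2.4.6, scipy 1.17.1 and matplotlib 3.10.9.

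The members, the list of 112 genes and the tests were chosen with earlier results of these data known. Genes are named where called, strongest or extreme within a family, nearest the threshold, outside promoters or on several peaks, among the 5 extreme changes or 5 smallest interaction p-values, or called in the further list; others are examples chosen after their values were seen. Alternatives varied the FDR, the concentration filter, peak class, peaks per gene, families, bins, centring and matching. Library numbers differ between groups and pair no samples.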

Additional observations from a re-analysis of the deposited data

How the results depend on the processing

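Of 103 alternative values, 97 kept their direction and their side of the threshold or stayed within the tolerated range, and 6 moved, all of them counts of called members. The tolerated range was 0.1 log2 units for changes and a ratio of 1.5 for counts. Before PPx and in control islets the called count was 0, which cannot rise under a stricter FDR or in a subset of peaks. Such alternatives could not have moved, and they are among the 97. Each main median excess was smaller than 0.1, so its sign could switch without being counted as moved. It did so for βKO over PPx, as did the members' median change before PPx (-0.025 to 0.03). Between the genotypes after PPx the 12 calls became 38 at an FDR under 0.1, 0 at an FDR under 0.01 and 7 when the p-values were adjusted by Benjamini-Hochberg over all listed peaks. After PPx in βKO islets the 11 calls became 39, 0 and 6 under the same alternatives. Of the 23 called peaks, 13 passed the adjustment over all listed peaks. Between the genotypes Ddx20 (adjusted p of 0.0510), Hnrnpa0 (0.0551), Rbm17 (0.0591), Ddx50 (0.0625) and Hnrnpc (0.0666) did not, nor did Hnrnpc, Hnrnpa2b1, Prpf19, Hnrnph3 and Exosc5 between the times in βKO (0.0519 to 0.0574). The median excess over like peaks ran between 0.02 and 0.05 (genotypes after PPx), -0.05 and -0.025 (before PPx), -0.03 and 0.01 (βKO over PPx) and -0.07 and -0.03 (control over PPx). One alternative, leaving out peaks that overlap the promoter window of another gene and the opposite-strand genes, was added after seeing the data. No paired analysis was possible because the tables hold group values only and the groups share no replicate number. For the same reason no library could be left out in turn. Depth per library is unknown, and with a median SE near 0.4 a change well under the general shift was not detectable at single peaks. Larger departures from the table median could also go uncalled. Srsf5 lay 1.02 above it between the genotypes after PPx, with an adjusted p of 0.855 in the approximate normal test. The 0 calls relative to the median therefore do not show that members changed by the general shift alone.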
